A study of Oryza sativa with 12 samples.

Results

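Leaves of normally watered rice differed most by the set of arrays to which they belonged, and clock genes were among the genes that parted the 2 sets most. The sample descriptions begin with 1 of 2 prefixes, called set A and set B here. That a prefix marks a hybridisation job is an inference from its form. Of the 12 arrays of the series, the 6 arrays of normal growth were compared by this prefix: osnadk1 replicates 1 and 2 and WT replicate 1 formed set A, and osnadk1 replicate 3 and WT replicates 2 and 3 formed set B. The 6 drought arrays carried the same prefixes by replicate and served as the comparison. No harvest hour was given in the sources used here, so whether the sets were harvested at different times of day was not tested.

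WT was Oryza sativa ssp. japonica cv. Dongjin, and osnadk1 was a homozygous line of the same cultivar with 1 T-DNA insertion in an intron of OsNADK1, a gene of cytosolic NAD kinase. The mutant is thus a single insertion line. RNA came from the youngest fully expanded leaf of 2.5-month-old plants grown in soil with 16 h of light and 8 h of darkness. Normal-growth leaves were taken 0 days after water was withheld, at 47.3% soil moisture, and drought leaves after 15 days, at 8.5%. An osnadk1 and a WT plant were paired in a pot for the drought treatment. The 6 WT arrays were marked in the labels as a re-analysis of arrays from earlier work. Each array was an Affymetrix rice genome chip, on which groups of short probes, called probe sets, each report 1 transcript. The values are MAS5 signals on the log2 scale, so a difference of 1 is a 2-fold change in signal.

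In plants the circadian clock is a loop of transcription factors that repress each other in turn over the day. CCA1, a MYB factor, peaks around dawn and represses evening genes, and the pseudo-response regulators PRR73, PRR37, PRR95 and PRR1 follow in sequence from morning to evening. PRR1 is the rice counterpart of Arabidopsis TOC1. PCL1, the counterpart of Arabidopsis LUX, and GI belong to the evening part of the loop. In leaves the clock and light together drive genes of chlorophyll synthesis, photosynthesis, nitrogen uptake and sugar transport, many of which cycle daily.

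The arrays of set A under normal growth stood apart from all others. On the first principal component, which held 33.9% of the variance of all 12 arrays, they scored 121.4 to 140.4, while set B under normal growth scored -48.1 to -26.5. The drought arrays scored -38.2 to -26.9 in set A and -66.3 to -54.4 in set B, within or beyond the range of set B under normal growth. Pearson correlations between a normal array of set A and one of set B were 0.884 to 0.895 over 9 pairs. Correlations between normal arrays of set B and drought arrays of set A were 0.935 to 0.951 over 9 pairs.

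**Figure D1:**
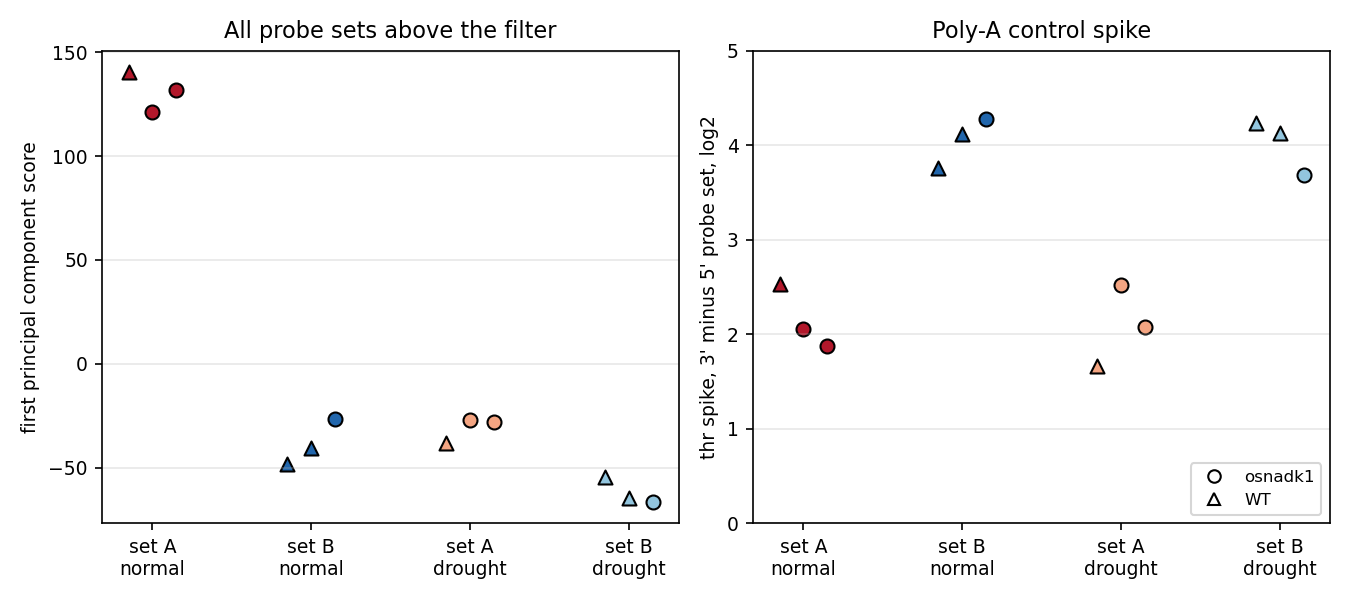
Score of each of the 12 arrays on the first principal component (left) and the log2 signal of the thr spike at its 3′ minus its 5′ probe set (right), by set and condition, with circles for osnadk1 and triangles for WT. The 3 normal arrays of set A score above 121 on the component, while the spike parts the sets in both conditions.

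Some labelling and housekeeping controls also differed between the sets. The 3′ minus 5′ difference of the thr spike was 1.87 to 2.53 in set A and 3.76 to 4.28 in set B under normal growth, and 1.67 to 2.53 against 3.68 to 4.23 under drought. For the GAPDH control it was 0.77 to 1.01 against 1.36 to 1.42 under normal growth, and 0.84 to 1.02 against 1.38 to 1.58 under drought. For ubiquitin it was -0.37 to -0.31 against -0.27 to -0.19 under normal growth, and under drought the sets overlapped, at -0.41 to -0.24 and -0.29 to -0.20. For cyclophilin the sets overlapped in both conditions. The hybridisation control cre overlapped under normal growth, at 14.73 to 14.92 in set A and 14.64 to 14.91 in set B. Under drought it did not, at 14.49 to 14.675 against 14.82 to 14.89. The bioB control also stood apart under drought only, at 9.76 to 9.86 against 9.88 to 10.15. Actin and the dap spike parted the sets in both conditions. The array medians under normal growth were 5.08 to 5.39 in set A and 5.08 to 5.41 in set B. The part of the labelling difference in the gene results below was not tested. The drought arrays carry a labelling difference between the sets as well. OsNADK1 followed the genotype labels and not the set: its signal was 3.96 and 5.16 in osnadk1 and 10.27 in WT in set A, and 4.78 in osnadk1 and 9.55 and 9.55 in WT in set B.

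Of 29021 probe sets at or above the array median on at least 3 of the 6 arrays, 2290 (7.89%) were higher and 3249 (11.2%) lower in set A at an adjusted p under 0.05, with genotype in the model (limma, Benjamini-Hochberg). All differences below are set A minus set B from this model. They exceeded 2-fold for 1491 of the higher and 1947 of the lower probe sets, 8-fold for 257 and 221, and 32-fold for 38 and 38. Of all tested, 9637 (33.2%) had an unadjusted p under 0.05. The arrays of the sets did not overlap for 11788 probe sets (40.6%), with set A above for 4647 (16%) and below for 7141 (24.6%). The median over all probe sets tested was -0.09. Under drought the same split gave 226 higher (0.783%) and 616 lower (2.13%) of 28878 probe sets, 842 in all (2.92%), and the sets did not overlap for 7147 (24.7%). The difference between the sets itself differed between normal growth and drought for 4252 of 32110 probe sets (13.2%), upwards for 1729 (5.38%) and downwards for 2523 (7.86%). Called counts under normal growth depended on single arrays: without osnadk1 replicate 2, WT replicate 2 or WT replicate 3, they were 3557, 3350 and 3149 in place of 5539. Under drought, the 842 calls became 316, 406, 178 and 256 without osnadk1 replicate 1, 2 or 3 or WT replicate 3. The 4252 became 2662 and 2733 without drought osnadk1 replicate 3 or drought WT replicate 1.

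**Figure D2:**
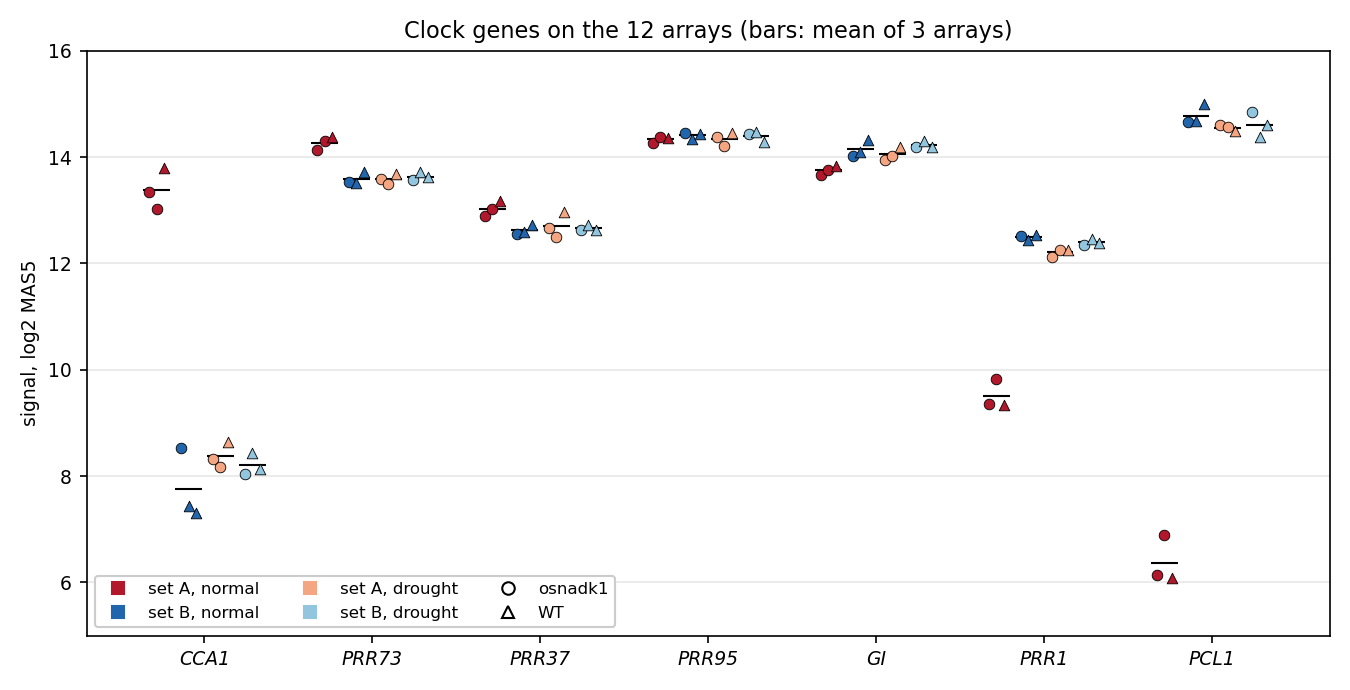
Log2 MAS5 signal of 7 clock genes on each of the 12 arrays, by set and condition (circles osnadk1, triangles WT, bars the mean of 3 arrays). CCA1 lies above 13 in set A under normal growth and below 8.7 on the other 9 arrays, while PCL1 and PRR1 are low in set A under normal growth only.

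Among the clock genes, the dawn gene CCA1 was high and the evening genes PCL1 and PRR1 were low in set A, by 46.4-fold, 350-fold and 8.2-fold. The signal of CCA1 was 13.34 and 13.02 in osnadk1 and 13.79 in WT in set A, against 8.53 in osnadk1 and 7.43 and 7.31 in WT in set B. All 3 arrays of set A lay far above all 3 of set B, and both genotypes fell on the same side. The difference was 5.54 ± 0.38 (SE, n = 3 against 3 arrays, adjusted p = 0.000318, limma). On the 6 drought arrays CCA1 was 8.04 to 8.63, near set B, in both sets.

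PCL1 showed the opposite order. Its signal was 6.14 and 6.90 in osnadk1 and 6.08 in WT in set A, and 14.66 in osnadk1 and 14.68 and 14.99 in WT in set B. Set A lay not far above the array medians while set B was among the brightest probe sets of the chip, which reached 15.04 to 15.49 at most. The difference was -8.45 ± 0.26 (adjusted p = 4.55e-05, limma), and the drought arrays were at 14.38 to 14.85.

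PRR1 was 9.37 and 9.83 in osnadk1 and 9.34 in WT in set A, and 12.51 in osnadk1 and 12.45 and 12.54 in WT in set B. The ranges did not overlap, and the 3 arrays of set B nearly coincided. The difference was -3.04 ± 0.16 (adjusted p = 0.000163, limma), and the drought arrays were at 12.12 to 12.47.

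On their brightest probe sets the other clock genes differed little. PRR73 was 14.14, 14.31 and 14.37 in set A and 13.53, 13.52 and 13.72 in set B, a difference of 0.72 ± 0.11 (adjusted p = 0.00678). GI was 13.66, 13.76 and 13.83 in set A and 14.02, 14.10 and 14.32 in set B. The ranges of GI did not overlap, but its difference of -0.35 ± 0.11 did not pass (adjusted p = 0.0738), and it passed after quantile normalisation (adjusted p = 0.0212). PRR95 overlapped between the sets, at -0.07 ± 0.10 (adjusted p = 0.643). Both genes were bright on every array, above 99.0% of the probe sets for GI and 99.5% for PRR95, near the top of the chip's range. The brightest probe sets of PRR73 and PRR37 were above 98.9% and 97.3% on every array.

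PRR37 gave 2 answers. Its brighter probe set was 0.46 ± 0.11 higher in set A (adjusted p = 0.0297), while the dimmer probe set was lower, at -1.61 (adjusted p = 0.00184). The call on the brighter probe set was lost without osnadk1 replicate 2 or without any 1 WT array (adjusted p = 0.0757 to 0.104). PRR73 had a dimmer probe set that was also higher in set A, by 1.44 (adjusted p = 0.000586). By their brightest probe sets, 3 of the 7 clock genes tested were higher and 2 lower, or 71.4% called, where 19.1% of all probe sets were called. PRR37 is among the 3 by its brighter probe set only.

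The set difference was tested against that under drought for the same genes, with all 12 arrays in 1 model. It differed for CCA1 by 5.26 ± 0.44 (adjusted p = 5.87e-05), for PCL1 by -8.32 ± 0.30 (adjusted p = 4.04e-07), for PRR1 by -2.87 ± 0.18 (adjusted p = 1.45e-05) and for PRR73 by 0.73 ± 0.13 (adjusted p = 0.0052). GI, PRR37 and PRR95 did not pass, with adjusted p of 0.34, 0.195 and 0.87. Under drought alone none of the 7 passed, and their differences were -0.16 to 0.28. The 6 normal arrays enter the test between conditions again, so its passes are not independent of the normal-growth differences above. CCA1 also differed between the genotypes in the size of the set difference, which was 4.65 in osnadk1 and 6.42 in WT (adjusted p = 0.0252). In each genotype 1 set was a single array, and no probe set passed this test without the variance trend or with a plain equal-variance test.

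Because osnadk1 had 2 arrays in set A and WT had 1, means by genotype carried part of the set difference. The mean of CCA1 under normal growth was 11.63 in osnadk1 and 9.51 in WT. The genotype difference was 2.12 without the set in the model and 0.27 with it. For PCL1 it was -2.69 without and 0.13 with the set. Neither genotype difference passed in either model (adjusted p = 0.933 to 0.988).

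Beyond the clock, examples from each list of genes were in part chosen after their values were seen, and values are given for the brightest probe set of a gene unless stated. The lists were matched by symbol. Of 2485 tested probe sets whose gene has a name, 638 were called, a larger share than the 19.1% of all probe sets. List shares of 25% to 33.3%, given below beside 19.1%, differ little from that of named probe sets. Of 10 genes tested that link the clock to flowering, 3 were lower in set A and 0 higher, or 30% called. Over all probe sets 19.1% were called in either direction and 11.2% lower. With 10 genes, 3 calls do not set the list apart from these shares. Hd1, the rice homologue of Arabidopsis CONSTANS, was 5.26, 6.44 and 6.41 in set A and 9.60, 9.71 and 9.64 in set B, lower, at -3.51 ± 0.35 (adjusted p = 0.00138). DTH8, a HAP3 subunit that delays heading, was 7.45, 7.09 and 6.16 against 8.50, 9.02 and 9.13, a difference of -2.07 ± 0.39 (adjusted p = 0.0137). Neither gene's ranges overlapped. Hd16, a casein kinase, was lower, at -0.76 ± 0.14 (adjusted p = 0.0117), and did not pass with each array centred on its median (adjusted p = 0.103). LIR1, a light-induced gene, was 14.78 to 15.11 in set A and 14.93 to 15.23 in set B, and it did not pass (adjusted p = 0.612).

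Of 10 photoreceptor and light-signalling genes tested, 5 were higher and 3 lower in set A, or 80% called, against 19.1% of all probe sets. GLK1 and GLK2 encode factors that switch on chloroplast genes. GLK1 was 13.09, 12.96 and 12.62 in set A and 9.50, 10.04 and 10.04 in set B, higher by 3.05 ± 0.22 (adjusted p = 0.000362). GLK2 was higher by 1.59 ± 0.14 on its brightest probe set (adjusted p = 0.000822), while its other 3 did not pass, at 0.93, 0.22 and 0.32 (adjusted p = 0.0702, 0.501 and 0.332). SE5, the haem oxygenase that makes the phytochrome chromophore, was 12.89, 12.95 and 13.28 against 10.56, 9.93 and 9.91, higher by 2.86 ± 0.22 (adjusted p = 0.000522). The sets stood apart for all 3, and under drought GLK1 was lower in set A, at -0.65 (adjusted p = 0.044).

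The receptors themselves moved less. PHOT1A and PHOT2, blue-light receptors, were higher by 0.63 and 0.59 (adjusted p = 0.0187 and 0.0128). PhyB and phyC, red-light receptors, were lower, at -0.72 and -0.42 (adjusted p = 0.0178 and 0.0488), and the photolyase gene, of light-driven DNA repair, was lower, at -0.55 (adjusted p = 0.0224). PHYA was -0.44 (adjusted p = 0.0923). The calls of these 5 genes each rested on single arrays. Those of PHOT1A and PhyB were lost without osnadk1 replicate 2 or without any 1 WT array, that of PHOT2 without WT replicate 2, that of photolyase without osnadk1 replicate 1 or 2 or WT replicate 2 or 3, and that of phyC without any 1 array.

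Chloroplast genes that were higher in set A included steps of chlorophyll synthesis but not the bulk of the photosynthesis list. Of 15 chlorophyll genes tested, 5 were higher and 1 lower, or 40% called, against 19.1% of all probe sets. ALADH, an early enzyme of the tetrapyrrole pathway, was 12.72, 12.27 and 12.40 in set A and 9.13, 8.63 and 8.86 in set B, higher by 3.51 ± 0.17 (adjusted p = 0.000135). CHLH, the subunit of magnesium chelatase that binds the porphyrin, was 14.41, 14.37 and 13.85 against 11.70, 11.35 and 11.45, higher by 2.57 ± 0.11 (adjusted p = 8.95e-05). CHLP, PORB and URO-D2 were higher by 1.91, 1.12 and 0.61, and CHLG, chlorophyll synthase, was lower, at -0.60 (adjusted p = 0.0093). The calls of CHLG and URO-D2 were lost with each array centred on its median (adjusted p = 0.123 and 0.09). The median of the list was -0.09, as over all probe sets tested.

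Of 19 photosynthesis genes tested, 3 were higher and 0 lower, or 15.8% called. Over all probe sets 7.89% were called higher and 19.1% in either direction. All arrays of set A lay above all of set B for 6 of the 19 and below for 1, where 16% of all probe sets lay above and 24.6% below. The list's median was 0.21. PSAG, a small subunit of photosystem I, was 13.47, 13.32 and 13.70 in set A and 10.22, 10.11 and 10.22 in set B, a difference of 3.36 ± 0.13 (adjusted p = 7.33e-05). OsrcaA1, Rubisco activase, was 15.28, 15.49 and 15.42 against 13.30, 13.31 and 13.43, higher by 2.07 ± 0.11 (adjusted p = 0.000156). Its values in set A lie at the top of the chip's range, and its 4 probe sets differed by 1.90 to 3.09. Neither overlapped between the sets. RCABP89, a chlorophyll-binding protein, was higher by 0.94 (adjusted p = 0.00944). The bright members CAB2R, OEE3 and PSAH were at 0.29, 0.11 and 0.12 and did not pass, although a dimmer probe set of CAB2R did, at 0.61 (adjusted p = 0.0236). The summed linear signal of the 19 genes on the chip was 388221 to 453420 in set A and 306332 to 362207 in set B.

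**Figure D3:**
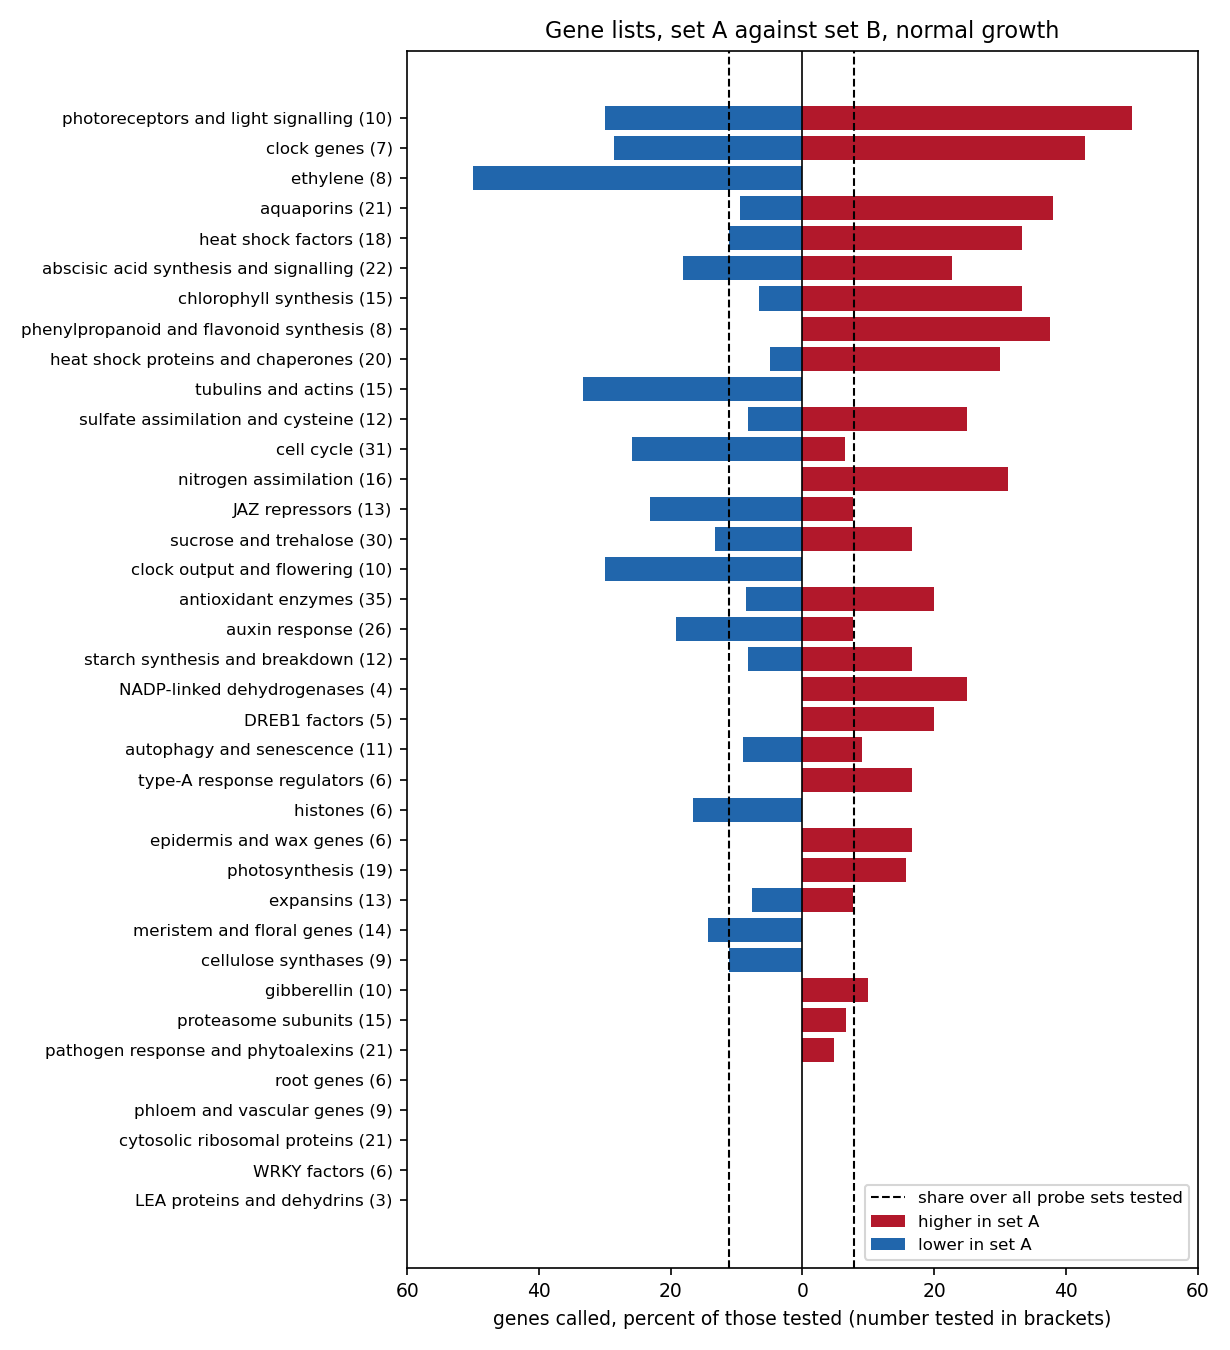
Share of the tested genes of each list that were higher (red, right) or lower (blue, left) in set A under normal growth at an adjusted p under 0.05, in percent, with the number of genes tested in brackets. The dashed lines mark 7.89% and 11.2%, the shares over all probe sets, and the light-signalling and clock lists have the largest shares called in either direction, 80% and 71.4%.

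Of 16 nitrogen genes tested, 5 were higher and 0 lower in set A, and 11 did not pass. The share called was 31.2%, against 19.1% of all probe sets. AMT1, an ammonium transporter, was 13.04, 13.67 and 13.31 in set A and 10.00, 9.34 and 9.21 in set B, higher by 3.7 ± 0.23 (adjusted p = 0.000233). NIA1, nitrate reductase, was 12.30, 12.88 and 12.24 against 10.16, 10.35 and 10.35, higher by 2.16 ± 0.21 (adjusted p = 0.00115). GLN1-2 and GLN1-1, cytosolic glutamine synthetases, and AMT3-2 were higher by 2.38, 1.62 and 1.11, and the call of GLN1-1 was lost without osnadk1 replicate 2, WT replicate 1 or WT replicate 3. The plastid enzymes GLN2 and Fd-GOGAT were at 0.51 and 0.22 and did not pass. GLN1-2 and AMT3-2 were also higher in set A under drought, by 0.98 and 1.44 (adjusted p = 0.0456 and 0.0451).

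Of 12 sulfate and cysteine genes, 3 were higher and 1 lower, and 8 did not pass. The share called was 33.3%, against 19.1% of all probe sets. APR1, which reduces activated sulfate, was 13.79, 13.53 and 13.00 against 11.77, 11.93 and 11.68, higher by 1.54 ± 0.19 (adjusted p = 0.00292). The serine acetyltransferases SAT5 and SAT2 were higher by 1.43 and 1.11. The cysteine synthase rcs3 was lower, at -0.69, a call lost without WT replicate 2 or any 1 osnadk1 array.

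Of 21 aquaporins tested, the membrane channels for water, 8 were higher and 2 lower in set A, 11 did not pass, and the median was 0.71. The share called was 47.6%, against 19.1% of all probe sets. PIP2-1, of the plasma membrane, was 14.28, 14.22 and 13.56 in set A and 10.89, 11.28 and 11.32 in set B, higher by 2.81 ± 0.24 (adjusted p = 0.000709), although its dimmest probe set was at -1.99 (adjusted p = 0.179). TIP4-1, of the vacuolar membrane, was 9.63, 10.26 and 9.25 against 13.84, 14.07 and 14.03, lower, at -4.34 ± 0.26 (adjusted p = 2e-04). Neither gene overlapped between the sets. The other called members were TIP1-2, PIP2-2, PIP1-3, PIP1-1, TIP1-1 and PIP1-2, higher by 0.71 to 1.83, PIP2-4, at least 17.0-fold higher because set B was below the array medians, and PIP2-7, lower, at -0.72. The call of PIP2-2 was lost without osnadk1 replicate 1 or 2 or WT replicate 2 or 3, and that of TIP1-1 without any 1 osnadk1 array or WT replicate 3.

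Of 30 sucrose and trehalose genes, 5 were higher and 4 lower in set A, or 30% called, and of 12 starch genes, 2 were higher and 1 lower, or 25%, where 19.1% of all probe sets were called. SWEET2B, a sugar transporter, is described with the largest fitted differences. SWEET4, of the same family, was 11.14, 11.68 and 10.88 in set A and 13.14, 13.15 and 13.11 in set B, lower, at -1.99 ± 0.19 (adjusted p = 0.00124). SUS4, a sucrose synthase, was lower, at -1.18, and SS2, a starch synthase, was higher by 1.73 (adjusted p = 0.000819) on its brightest probe set, while its other 2 did not pass, at 0.31 and 0.27 (adjusted p = 0.601 and 0.72). The ranges of these 3 did not overlap.

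Of 18 heat shock factors tested, 6 were higher and 2 lower, and of 20 heat shock proteins and chaperones, 6 were higher and 1 lower. The shares called were 44.4% and 35%, against 19.1% of all probe sets. HSFB2A was 12.04, 12.23 and 10.71 in set A and 6.99, 6.63 and 6.51 in set B, higher by 4.64 ± 0.25 (adjusted p = 0.000162). HSFC1B was 5.24, 6.39 and 4.30 against 11.61, 11.54 and 11.61, lower, at -6.54 ± 0.43 (adjusted p = 0.000287). Members of 1 family thus lay at both ends, with no overlap. The small heat shock proteins HSP18.6 and HSP24.1, which hold unfolded proteins, were higher by 3.55 and 3.39 (adjusted p = 0.000522 and 0.00099). HSFA2D differed by probe set, at 5.21 (adjusted p = 0.000574) on one and -0.13 (adjusted p = 0.433) on the brighter one.

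Of 8 ethylene genes tested, 4 were lower and 0 higher in set A, and 4 did not pass. The share called was 50%, against 19.1% of all probe sets. The receptor ERS2 was 7.26, 7.30 and 6.17 in set A and 9.68, 9.99 and 9.79 in set B, lower, at -3.06 ± 0.31 (adjusted p = 0.00146). The transcription factor EIL1B was lower, at -1.78 (adjusted p = 0.00103), the receptor ETR2 at -0.85 and the receptor ERS1 at -0.66, and the call of ERS1 was lost without WT replicate 3. With each array centred on its median neither receptor passed (adjusted p = 0.061 for ETR2 and 0.13 for ERS1). Of 22 abscisic acid genes, 5 were higher and 4 lower, or 40.9% called, and the 4 lower were all SnRK2 kinases. SAPK1, of the same kinase family, was higher by 0.40 (adjusted p = 0.0445), a call lost without osnadk1 replicate 1 or 2 or any 1 WT array, and SAPK8 did not pass, at 0.20 (adjusted p = 0.357). SAPK9 was 7.39, 7.55 and 6.92 against 13.12, 13.29 and 13.39, a difference of -6.04 ± 0.20 (adjusted p = 4.83e-05). SAPK7, SAPK10 and SAPK6 were lower, at -3.20, -1.60 and -1.13, and these 3 calls held without any 1 array. Of 26 auxin genes, 2 were higher and 5 lower, or 26.9% called. SAUR39, an early auxin-induced gene, was 8.32, 8.21 and 9.57 against 11.78, 11.61 and 11.73, lower, at -2.81 ± 0.31 (adjusted p = 0.00196).

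Of 35 antioxidant genes tested, 7 were higher and 3 lower, or 28.6% called. Of all probe sets 19.1% were called, and of the 2485 with a gene name 638 were. Of the 7, 5 were numbered thioredoxins, among them OsTrx18 and OsTrx03, higher by 2.00 and 1.93 (adjusted p = 0.00169 and 0.000478). The thioredoxins OsTrx19 and OsTrx08 were lower, at -0.50 and -0.46, calls lost without any 1 array for OsTrx19 and without any 1 array but WT replicate 1 for OsTrx08. NADP-ME, a malic enzyme that makes NADPH, was 11.56 to 12.19 over the 3 arrays of set A and 9.17, 9.75 and 9.68 in set B, higher by 2.38 ± 0.25 (adjusted p = 0.00159). It was the 1 gene called of 4 NADP-linked dehydrogenases, or 25%. Of 11 autophagy and senescence genes tested, 1 was higher and 1 lower, or 18.2% called. NYC1, chlorophyll b reductase of leaf senescence, was 11.68, 11.78 and 11.76 against 13.41, 13.63 and 13.67, lower, at -1.79 ± 0.11 (adjusted p = 0.000217). SGR, of the same list, went the other way, at 0.80 and 1.48 on its 2 probe sets.

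Of 31 cell cycle genes, 2 were higher and 8 lower, or 32.3% called, against 19.1% of all probe sets. RFC4 and ORC4, of DNA replication, were lower, at -1.38 and -1.54 (adjusted p = 0.00509 and 0.0076). Of 15 tubulins and actins, 5 were lower and 0 higher, or 33.3% called. TUBA1 was lower, at -0.74 (adjusted p = 0.00503), and did not pass with each array centred on its median (adjusted p = 0.0677). All 21 cytosolic ribosomal protein genes overlapped between the sets, and their differences were -0.30 to 0.13 with no gene called. The 15 proteasome genes were at a median of -0.19. In 11 of the 15 all arrays of set A lay below all of set B, a larger share than the 24.6% of all probe sets. Even so, 0 of the 15 were called lower. RPT1A alone was called, at 0.50, a call lost without any 1 array but osnadk1 replicate 3. Of 8 phenylpropanoid genes 3 were higher, or 37.5% called. PAL, the entry enzyme, was 12.75, 13.11 and 12.96 against 10.19, 11.62 and 11.66, higher by 2.03 ± 0.31 (adjusted p = 0.00675). Under drought PAL was lower in set A, at -1.35 (adjusted p = 0.00914).

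Some stress and tissue lists gave few or no calls, where 19.1% of all probe sets were called. The heat shock lists above, at 44.4% and 35%, were over that share. So were 13 JAZ repressor genes, with 1 higher and 3 lower, or 30.8%. The 3 LEA and dehydrin genes, 6 WRKY factors, 9 phloem and vascular genes and 6 root genes that passed the filter had none. Lists this short would hold few calls at the share of all probe sets. The LEA and dehydrin list had 9 genes on the chip. Of 21 pathogen response genes 1 was called, CYP76M8 at 1.20 (adjusted p = 0.0347), and the call was lost without any 1 array but WT replicate 1. The summed linear signal of all 14 root genes on the chip was 9970 to 25543 in set A and 13017 to 17377 in set B, so the sets overlapped. That of 18 phloem and vascular genes was 4243 to 4923 and 4513 to 7593. The sum for 11 epidermis and wax genes was higher in set A, at 23071 to 28412 against 12075 to 19907, and 1 of the 6 tested was called, LTP, a lipid transfer protein, at 1.03 (adjusted p = 0.0248). That call was lost without osnadk1 replicate 1 or 2 or WT replicate 3. The part of leaf make-up in the set difference was not tested. In whole leaves, fewer cells of a type and less RNA per cell cannot be told apart.

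**Figure D4:**
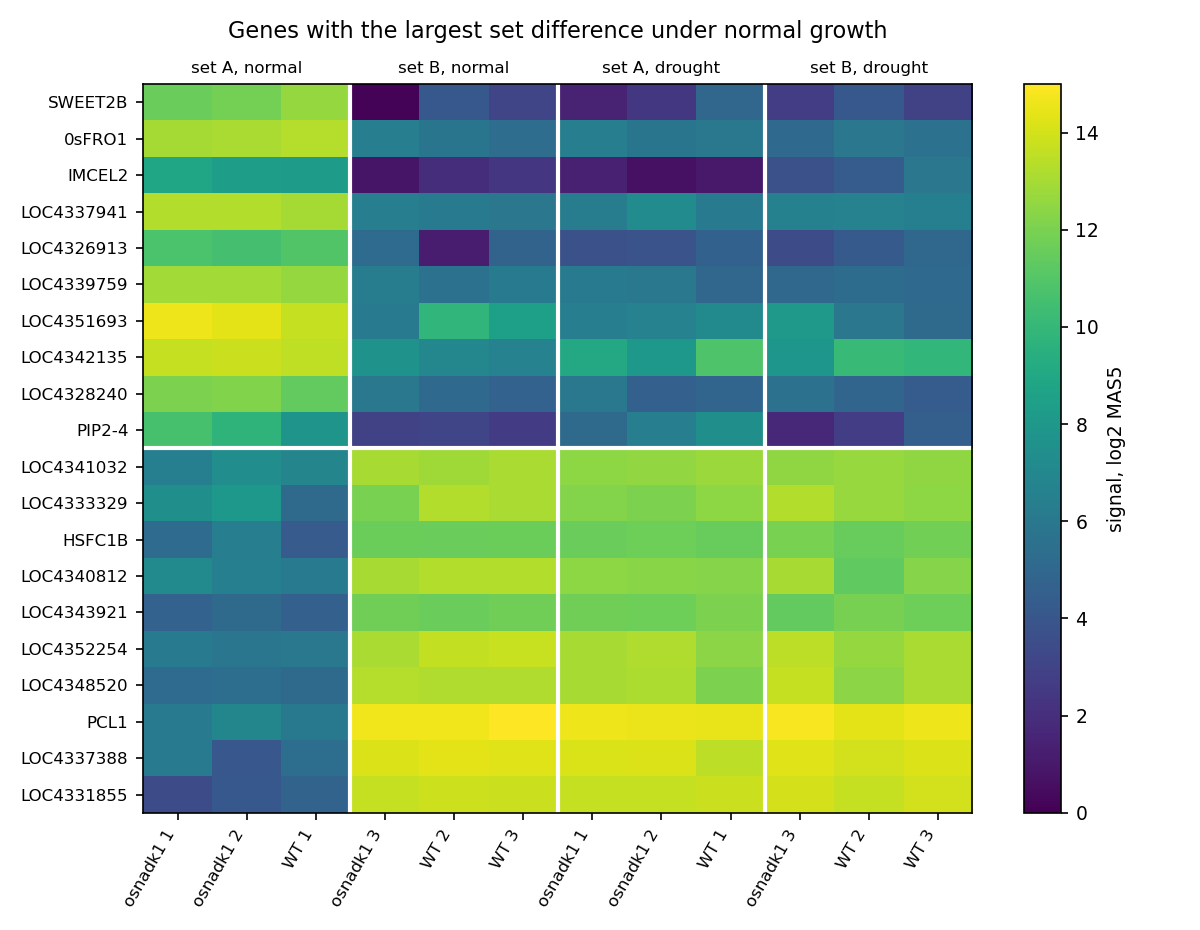
Log2 MAS5 signal (colour) on the 12 arrays (columns) of the 10 genes highest (above the line) and the 10 lowest (below it) in set A under normal growth, among called probe sets with 1 annotated gene. The 3 arrays of set A under normal growth are high above the line and low below it, while the drought arrays of set A are intermediate for PIP2-4, at 5.21 to 7.48.

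For the 20 genes with the largest fitted differences, all 6 drought arrays lay outside the range of set A, on the side of set B. For PIP2-4 the drought means were 6.37 in set A and 3.00 in set B, and the change in its set difference between conditions did not pass, at 2.11 (adjusted p = 0.208). The 20 genes were chosen for the set difference under normal growth, so their normal-growth values are a description. SWEET2B was 11.55, 11.84 and 12.61 in set A and 0.17, 4.11 and 3.12 in set B, where it was below the median of every array. Counting set B at those medians, it was at least 105.1-fold higher, and a brighter probe set was higher by 7.26. 0sFRO1, named as a ferric reductase, was 12.99, 13.09 and 13.32 against 6.42, 5.85 and 5.39, and 5.15 to 6.41 on the drought arrays. LOC4342135, which the study lists as a MYB factor, was 13.70, 13.80 and 13.57 against 7.72, 6.93 and 6.65, and the drought arrays, at 7.89 to 10.84, lay between the sets. PIP2-4 and IMCEL2 were below the array medians in set B and at least 17.0-fold and 9.23-fold higher in set A. The other 5, LOC4337941, LOC4326913, LOC4339759, LOC4351693 and LOC4328240, have no gene name in the tables used here and were higher by 6.27 to 6.87.

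Among the lowest, LOC4331855 was 3.46, 4.15 and 4.77 in set A, below the array medians, and 13.68, 13.89 and 13.82 in set B, at least 365.8-fold lower. On the drought arrays it was 13.68 to 14.02. LOC4337388 was 6.16, 4.07 and 5.43 against 14.24, 14.37 and 14.24, and 13.50 to 14.24 under drought. The drought arrays thus matched set B within 1 log2 unit for both genes. PCL1 and HSFC1B were also among the 10, and the other 6 were lower, at -6.13 to -8.01 and have no gene name in the tables used here. Of these 6, LOC4343921 was below the array medians in set A and at least 84.1-fold lower.

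The drought arrays were not used to choose the called probe sets and show where these lie in the other condition. Of the 2290 probe sets higher in set A under normal growth, the mean of the 3 drought arrays of set A was nearer to set B under normal growth for 1997 (87.2%). Of the 3249 lower probe sets this held for 2823 (86.9%). All 6 drought arrays lay beyond the 3 normal arrays of set A, on the side of set B, for 1837 (80.2%) and 2579 (79.4%). These probe sets were called because set A stood off from set B under normal growth, which favours such shares. The shares over all probe sets tested were not computed, so these are a description. Over 27419 probe sets tested in both conditions, the set differences under normal growth and drought correlated at r = 0.145 across probe sets, which are not independent and share the labelling difference between the sets.

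**Figure D5:**
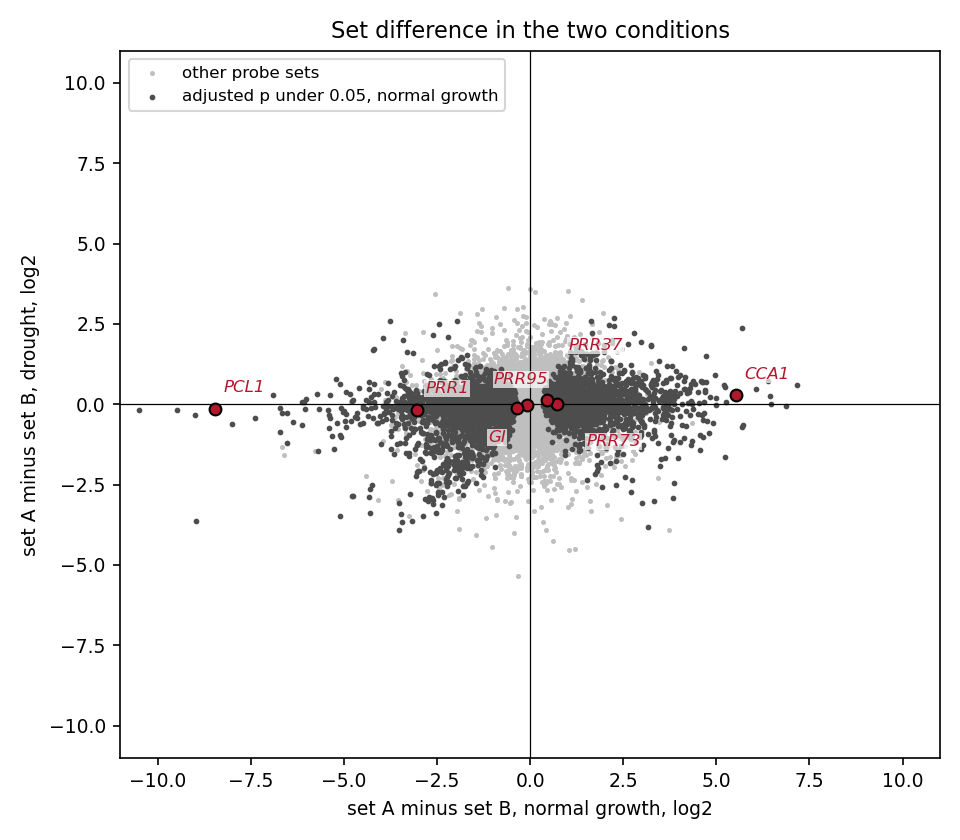
Log2 difference of set A minus set B under normal growth (horizontal) and under drought (vertical) for each probe set tested in both, with called probe sets in dark grey and the 7 clock genes in red. The clock genes spread from -8.45 to 5.54 along the horizontal axis and lie between -0.16 and 0.28 on the vertical axis.

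For the genes outside the clock named next, the test of the difference between conditions had the direction of the normal-growth difference. It was 3.7 for GLK1 (adjusted p = 2.25e-05), 2.78 for SE5 (adjusted p = 0.000204), 0.80 for PHOT2 (adjusted p = 0.00526) and -3.47 for Hd1 (adjusted p = 0.000683). For PSAG and AMT1 it was 3.61 and 3.75 (adjusted p = 1.5e-06 and 8.84e-05), and for TIP4-1 it was -3.99 (adjusted p = 2.76e-05). Hd16, PHOT1A and PhyB did not pass this test (adjusted p = 0.073, 0.22 and 0.0531, limma). The genes named were chosen with their normal-growth values known, and the same normal arrays enter the test. Its passes are thus not independent of the normal-growth differences. All these values are differences between conditions in the set difference, taken with its sign, and condition also differs in harvest day.

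Over the 12 arrays, the probe sets most like CCA1 in pattern were those of LOC4339755, PAP2, LOC4327776, ISPG and LOC4331483, with Pearson's r of 0.992 to 0.997. The most opposite were SAPK9, LOC4352254, LOC4342386 and 2 probe sets without a gene, with r of -0.996 to -0.992. ISPG is an enzyme of plastid isoprenoid synthesis. These correlations rest on the 3 normal arrays of set A standing apart, and are a description of 12 arrays that share sets and genotypes.

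With a set term for each genotype and 2 residual degrees of freedom, 6200 probe sets were called in osnadk1 and 7228 in WT. Each of these contrasts sets 2 arrays against 1, and the lone array is assumed to vary like the others. Across probe sets, the differences of osnadk1 and WT, which share no array, correlated at r = 0.461 over 29021 probe sets. PCL1 differed by -8.14 in osnadk1 and -8.76 in WT, and PRR1 by -2.92 and -3.15. The set difference, taken with its sign, differed between the genotypes for 1217 probe sets (4.19%), higher in osnadk1 for 955 (3.29%) and lower for 262 (0.903%). In this test 6707 (23.1%) had an unadjusted p under 0.05. Higher here means a larger rise or a smaller drop in osnadk1, so these counts do not tell in which genotype the sets parted more. The count of 1217 has 1 array in 2 of the 4 cells. It moved to 8313 with 12.4% higher when each array was centred on its median, and to 0 without the variance trend. It was 280 without WT replicate 2 and 354 without WT replicate 3.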

How the data were processed

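Total RNA of rice leaves was labelled and hybridised to Affymetrix rice genome arrays. The deposited values are MAS5 signals on the log2 scale, as the authors computed them, and the MAS5 version is not given in the sources used here. The table held 57381 probe sets, of which 123 controls were left out, and 22436 had 1 gene in the platform annotation. Arrays were split by the prefix of their descriptions. Differences were fitted with limma 3.58.1 in R 4.3.3 (genotype and set as terms, variance trend), on probe sets that reached the median of their array on 3 or more arrays, with Benjamini-Hochberg adjustment over all probe sets tested and a threshold of 0.05. The model adjusts for genotype, so a difference can depart slightly from that of raw means. The fit has 3 residual degrees of freedom, and the number of arrays limits the precision. The same fit was made for the drought arrays, and 1 model of all 12 arrays tested whether the set difference differed between conditions. The labels call the replicates biological.

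The members and lists were chosen with earlier results of these data known. Lists were matched by symbol, so genes with no symbol in the annotation are not counted, and lists whose members had none, such as early light-induced proteins, were not used. Each gene was taken by its probe set of highest mean signal. Text genes are the clock, flowering-output and light-signalling genes, the 10 highest and 10 lowest probe sets with 1 gene, up to 4 of the brightest members of each list, the 5 most like and the 5 most opposite to CCA1, OsNADK1, and list members chosen after their values were seen. The script was tested on simulated data. Columns of fold changes that the study computed were not used.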

Additional observations from a re-analysis of the deposited data

Results flagged for a closer look

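The difference between the sets was tested for a difference between normal growth and drought, and 4252 probe sets passed. Under normal growth, 1217 probe sets passed a test for a difference of the set effect between osnadk1 and WT. Each value below is the set difference under normal growth minus that under drought, on the log2 scale (limma, Benjamini-Hochberg). Genes outside the clock were in part named for their normal-growth values. The same arrays enter these values, which are thus not independent of the normal-growth differences.

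Among clock and light genes this difference was 5.26 for CCA1 (adjusted p = 5.87e-05), -8.32 for PCL1 (adjusted p = 4.04e-07), -2.87 for PRR1 (adjusted p = 1.45e-05) and 0.73 for PRR73 (adjusted p = 0.0052). It was -3.47 for the flowering gene Hd1 (adjusted p = 0.000683), 3.7 for GLK1 (adjusted p = 2.25e-05), 2.78 for SE5 (adjusted p = 0.000204) and 0.80 for PHOT2 (adjusted p = 0.00526). Among other genes it was 9.93 for SWEET2B, 6.58 for 0sFRO1, -9.29 for LOC4331855, -8.68 for LOC4337388, -5.89 for SAPK9 and -6.28 for HSFC1B. SWEET2B in set B and LOC4331855 in set A were below the array medians, so these values depend on signals under the medians. For PSAG it was 3.61, for AMT1 3.75 and for TIP4-1 -3.99.

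The set difference under normal growth was smaller in osnadk1 than in WT by -1.77 for CCA1 (adjusted p = 0.0252) and by -0.99 for SE5 (adjusted p = 0.0365). For GLK1 it was larger in osnadk1 by 0.94 (adjusted p = 0.0474). Each of these 3 values rests on 1 array of osnadk1 in set B and 1 of WT in set A, and no probe set passed this test without the variance trend.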

How the results depend on the processing

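The 5539 probe sets called under normal growth became 1911 with a plain equal-variance test and 3149 to 7109 with 1 array left out. They were 4090 to 7912 under the other settings, apart from the replicate block. Drought calls were 842, and became 166 without the variance trend, 0 with the plain test, 518 in 1 fit of all 12 arrays, 219 in WT alone, 1594 at 2-fold with an unadjusted p under 0.05, and 178 to 740 with 1 array left out. Of the drought probe sets, 5488 had an unadjusted p under 0.05. The set-by-genotype count of 1217 became 8313 with array median centring, 616 without a filter, 0 without the variance trend or with the plain test, 3903 at 2-fold with an unadjusted p under 0.05, and 280 to 1811 with 1 array left out. At an unadjusted p under 0.05 it was 6707. Leaving out osnadk1 replicate 3 or WT replicate 1 allowed no estimate of it. The set-by-condition count of 4252 was 2662 to 5554 with 1 array left out. The alternatives for drought and for the genotype difference were chosen after seeing the data.

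The labels do not tie replicate numbers to pots. Deviations of same-numbered osnadk1 and WT arrays correlated at 0.196, -0.265 and 0.319 under normal growth, but the pairs of replicates 1 and 3 lie in 1 set and that of replicate 2 is split, so these values follow the set and cannot decide the pairing. With the replicate block the set difference is estimated from replicate 2 alone, and 0 probe sets were called under normal growth and 0 under drought, while the set-by-condition count was 3179. CCA1 was then at 5.20 (adjusted p = 0.16) and PRR95 at 0.0679 in place of -0.07.

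On the dimmest probe set PRR37 was at -1.61 and PIP2-1 at -1.99, and 9 other genes lost their calls (GLK2, SS2, HSP18.6, TIP4-1, IMCEL2, APR1, ORC4, PAL and TIP1-1). Of 85 list genes with several probe sets tested, 26 had some called and some not. Array median centring ended the calls of 18 of the single genes followed, PCNA among them. The set-by-condition difference of PRR95, -0.05, was 8e-04 in osnadk1 alone, 0.0049 without normal osnadk1 replicate 3, 0.054 without drought WT replicate 1 and 0.0059 without drought WT replicate 3, within a range of -0.1507 to 0.054 over the arrays left out. That of PRR73 and PHOT2 did not pass with array median centring (adjusted p = 0.12 and 0.0794). Values near the top of the chip's range, and those below the array medians, limit how large a difference can be read.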
